A study of Homo sapiens with 30 samples.

Results

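NF-kB is a family of transcription factor subunits that work in pairs, and the genes examined here are the subunits and the proteins that hold them back. They were NFKB1, NFKB2, RELA, RELB and REL, which encode the subunits, NFKBIA, NFKBIE and TNFAIP3, which encode feedback inhibitors, and BIRC3, a ubiquitin ligase of the same pathway. The members were chosen by symbol: a probe set was taken if the array's annotation gave it exactly 1 of these 9 symbols. That gave 13 of 22215 tested probe sets, which stand for 8 of 11963 named genes. BIRC3 was paired with no probe set in the annotation used and was not analysed here.

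The cells were Caco-2, a colorectal carcinoma line that matures into enterocyte-like cells, and HT29-MTX, a mucus-producing line derived from HT29 by methotrexate selection. The 2 human lines were seeded at 75% and 25% and grown for 14 days on Transwell membranes, so every array holds RNA of the mixture. Particles were added above the cell layer. Exposed cultures received multi-walled carbon nanotubes (MWCNT) at 10 or 100 µg/ml or titanium dioxide nanobelts (TiO2-NB) in the same 2 doses, and were harvested after 1 or 24 h. Controls at 1 h and at 24 h received fresh medium without particles, and a vehicle control without particles is not described in the labels. Each of the 10 groups has 3 arrays, labelled as biological replicates, and the 4 exposed groups of a time were all set against the same 3 control arrays. No label says how separate the replicate cultures were, so p-values measure the spread between these samples.

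In resting cells, the inhibitors IkB-alpha (NFKBIA) and IkB-epsilon (NFKBIE) keep NF-kB dimers in the cytoplasm. Signals from receptors lead to destruction of the inhibitors, the dimers enter the nucleus, and NFKBIA and TNFAIP3 are among the genes they switch on, so these transcripts are widely read as early products of the pathway that also shut it off. In the gut epithelium the pathway drives chemokines that attract leukocytes, and it also supports survival of the epithelial cells.

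The promoters of the inhibitors are shown because NFKBIA and TNFAIP3 carry the largest changes in the comparisons, and those of NFKB1, NFKB2 and REL for comparison. RefSeq promoter windows (GRCh38.p14, 250 bases before to 50 bases after each annotated start) were given for 7 of the 9 members, in 11 windows. They were not given for NFKBIE and RELB. Of the 11 windows, those of BIRC3 included, 7 held a match to the NF-kB consensus (kB) motif on either strand, where overlapping matches were counted separately. Among all 35116 windows, 2075 held a match (5.91%). The sequences read 5′ to 3′ on the strand of the gene and capitals mark the matches. For NFKBIA the 250 bases before the start are given, with its match beginning at position -81 from the start, and for the others 30 bases around a match.
NFKBIA, chr14:35404750-35404999, minus strand: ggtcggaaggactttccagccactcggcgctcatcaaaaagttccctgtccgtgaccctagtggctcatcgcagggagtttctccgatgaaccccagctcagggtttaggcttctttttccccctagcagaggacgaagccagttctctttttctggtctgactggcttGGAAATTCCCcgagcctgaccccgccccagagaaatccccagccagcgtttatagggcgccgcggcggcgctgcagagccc
TNFAIP3, chr6:137867188-137867217, plus strand: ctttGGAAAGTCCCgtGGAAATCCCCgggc
NFKB1, chr4:102501300-102501329, plus strand: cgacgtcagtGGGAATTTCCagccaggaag
NFKB2, chr10:102394461-102394490, plus strand: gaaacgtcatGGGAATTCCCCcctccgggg
REL, chr2:60881517-60881546, plus strand: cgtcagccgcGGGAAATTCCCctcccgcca
The TNFAIP3 stretch holds a pair of matches. In NFKB2 and REL a pair overlap, and NFKB2 holds others that are not shown. The RELA windows held none, and 259 of all windows held 2 or more (0.738%). A match is a stretch of letters and no binding was measured.

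The samples were first checked as a whole. Array medians lay between 6.45 and 6.49 on the log2 scale, and arrays of the same group correlated at 0.997 or more across probe sets. The normalisation makes the medians nearly equal in any case, so they do not speak to sample quality. Correlations between groups are not given, so this one does not show how far the groups were apart. By mean level, the 15 enterocyte markers lay between the 34.1th percentile of all probe sets (FABP2) and the 99.9th (APOA1), and the 12 goblet cell markers between the 18.2th (CLCA1) and the 99th (AGR2), with the mucins MUC2 and MUC5AC at the 44.6th and 53.2th. The 14 measured leukocyte markers lay between the 10.5th (HCLS1) and the 95.3th (LYZ), with PTPRC at the 11.7th and CD14 at the 55.4th, and the 12 stromal and endothelial markers between the 7.31th (KDR) and the 66th (LUM). At 1 h the array's 18S ribosomal RNA probe sets averaged 0.68 log2 units higher with MWCNT at 10 µg/ml, 0.93 with MWCNT at 100, 0.47 with TiO2-NB at 10 and 0.43 with TiO2-NB at 100 than in the control, and in the TiO2-NB 10 group alone they overlapped the control arrays. These differences go with each 1 h result given next. At 24 h the 18S differences were 0.065 to 0.27 and the arrays of all 4 exposed groups overlapped the controls.

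All levels are deposited log2 values made by robust multi-array averaging (RMA). A change is a difference of log2 group means with its standard error after ±, n = 3 arrays in each group, and a change is said to rise or fall only where its limma p-value, adjusted by Benjamini-Hochberg over the 22215 probe sets, was below 0.05. Levels of different probe sets are used only to rank probe sets and describe marker lists, and are not compared as amounts of transcript. The array measures transcripts and not protein or nuclear NF-kB, and fewer cells of a type cannot be told apart from less RNA per cell.

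After 1 h of exposure, the feedback inhibitors NFKBIA and TNFAIP3 fell and the subunit RELB rose, by nearly the same amount with both particles and at both doses. NFKBIA fell by 0.60 to 0.64 and the main TNFAIP3 probe set by 0.50 to 0.59, and RELB rose by 0.34 to 0.37. With MWCNT at the lower dose 1 member probe set rose and 3 fell, where 6.46% of all probe sets were called (2.56% up and 3.9% down). At the higher dose 2 rose and 3 fell, where 7.78% of all were called (3.51% up and 4.27% down). With TiO2-NB at the lower dose 1 rose and 3 fell, where 7.84% of all were called (2.61% up and 5.24% down). At the higher dose 1 rose and 4 fell, where 8.43% of all were called (2.65% up and 5.78% down). The median change of the 13 probe sets was 0.036, -0.0043, 0.035 and -0.16 in the order just given, and that of all probe sets lay between -0.012 and 0.0051. Most member probe sets were not called in any of these comparisons.

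NFKBIA, read by probe set 201502_s_at, was lower on all 12 exposed arrays of 1 h than on any control array of 1 h. Its log2 levels were 9.39, 9.45 and 9.41 with MWCNT at 10 µg/ml, 9.50, 9.30 and 9.42 with MWCNT at 100, 9.38, 9.47 and 9.34 with TiO2-NB at 10, 9.32, 9.42 and 9.39 with TiO2-NB at 100, and 9.93, 10.11 and 10.01 in the control. The exposed groups overlapped each other, and their lowest distance to a control array was wider than the range of any of the 5 groups. The change was -0.60 ± 0.054 (adjusted p = 1.61e-07) and -0.61 ± 0.054 (adjusted p = 1.39e-07) with MWCNT at 10 and 100 µg/ml, and -0.62 ± 0.054 (adjusted p = 8.54e-08) and -0.64 ± 0.054 (adjusted p = 5.23e-08) with TiO2-NB at 10 and 100. On the linear scale NFKBIA was 1.52-fold to 1.56-fold lower. A fit that included each array's 18S level also called it in all 4 comparisons.

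TNFAIP3 encodes A20, an enzyme that edits ubiquitin chains and stops signalling from receptors to NF-kB, and both of its probe sets fell in all 4 groups. With 202644_s_at the levels were 7.85, 7.84 and 7.93 with MWCNT at 10 µg/ml, 7.78, 7.86 and 7.87 with MWCNT at 100, 7.95, 7.96 and 7.88 with TiO2-NB at 10, 7.81, 7.92 and 7.97 with TiO2-NB at 100, and 8.34, 8.47 and 8.47 in the control. No exposed array reached a control array. The changes were -0.56 ± 0.048 (adjusted p = 1.10e-07), -0.59 ± 0.048 (adjusted p = 9.79e-08), -0.50 ± 0.048 (adjusted p = 4.19e-07) and -0.53 ± 0.048 (adjusted p = 1.37e-07) in the same order. The other probe set, 202643_s_at, had group means of 6.30, 6.29, 6.28 and 6.32 in the exposed groups, against 6.79 in the control. It fell by 0.48 to 0.51 with a standard error of 0.073 (highest adjusted p = 0.00015), so the 2 probe sets of the gene moved alike.

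NFKBIE, which encodes the inhibitor IkB-epsilon, passed the test in 1 of the 4 groups. Its levels were 7.42, 7.44 and 7.49 with MWCNT at 10 µg/ml, 7.36, 7.48 and 7.42 with MWCNT at 100, 7.36, 7.42 and 7.42 with TiO2-NB at 10, 7.37, 7.37 and 7.30 with TiO2-NB at 100, and 7.64, 7.57 and 7.45 in the control. The control arrays spread widely, and the MWCNT groups overlapped them while the TiO2-NB groups lay below them. The fall was called with TiO2-NB at 100 µg/ml (-0.21 ± 0.055, adjusted p = 0.019), and the others were -0.10 (adjusted p = 0.335), -0.13 (adjusted p = 0.154) and -0.15 (adjusted p = 0.101) with MWCNT at 10 and 100 and TiO2-NB at 10 µg/ml. Leaving out control replicate 1 ended this call (adjusted p = 0.0994), as did leaving out control replicate 2 (adjusted p = 0.0611) or TiO2-NB 100 replicate 3 (adjusted p = 0.0819). It was also lost on the compared groups only (adjusted p = 0.171) and after a second quantile normalisation (-0.17, adjusted p = 0.084). Without control replicate 3 the TiO2-NB 10 value passed as well (-0.20, adjusted p = 0.0413).

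**Figure D1:**
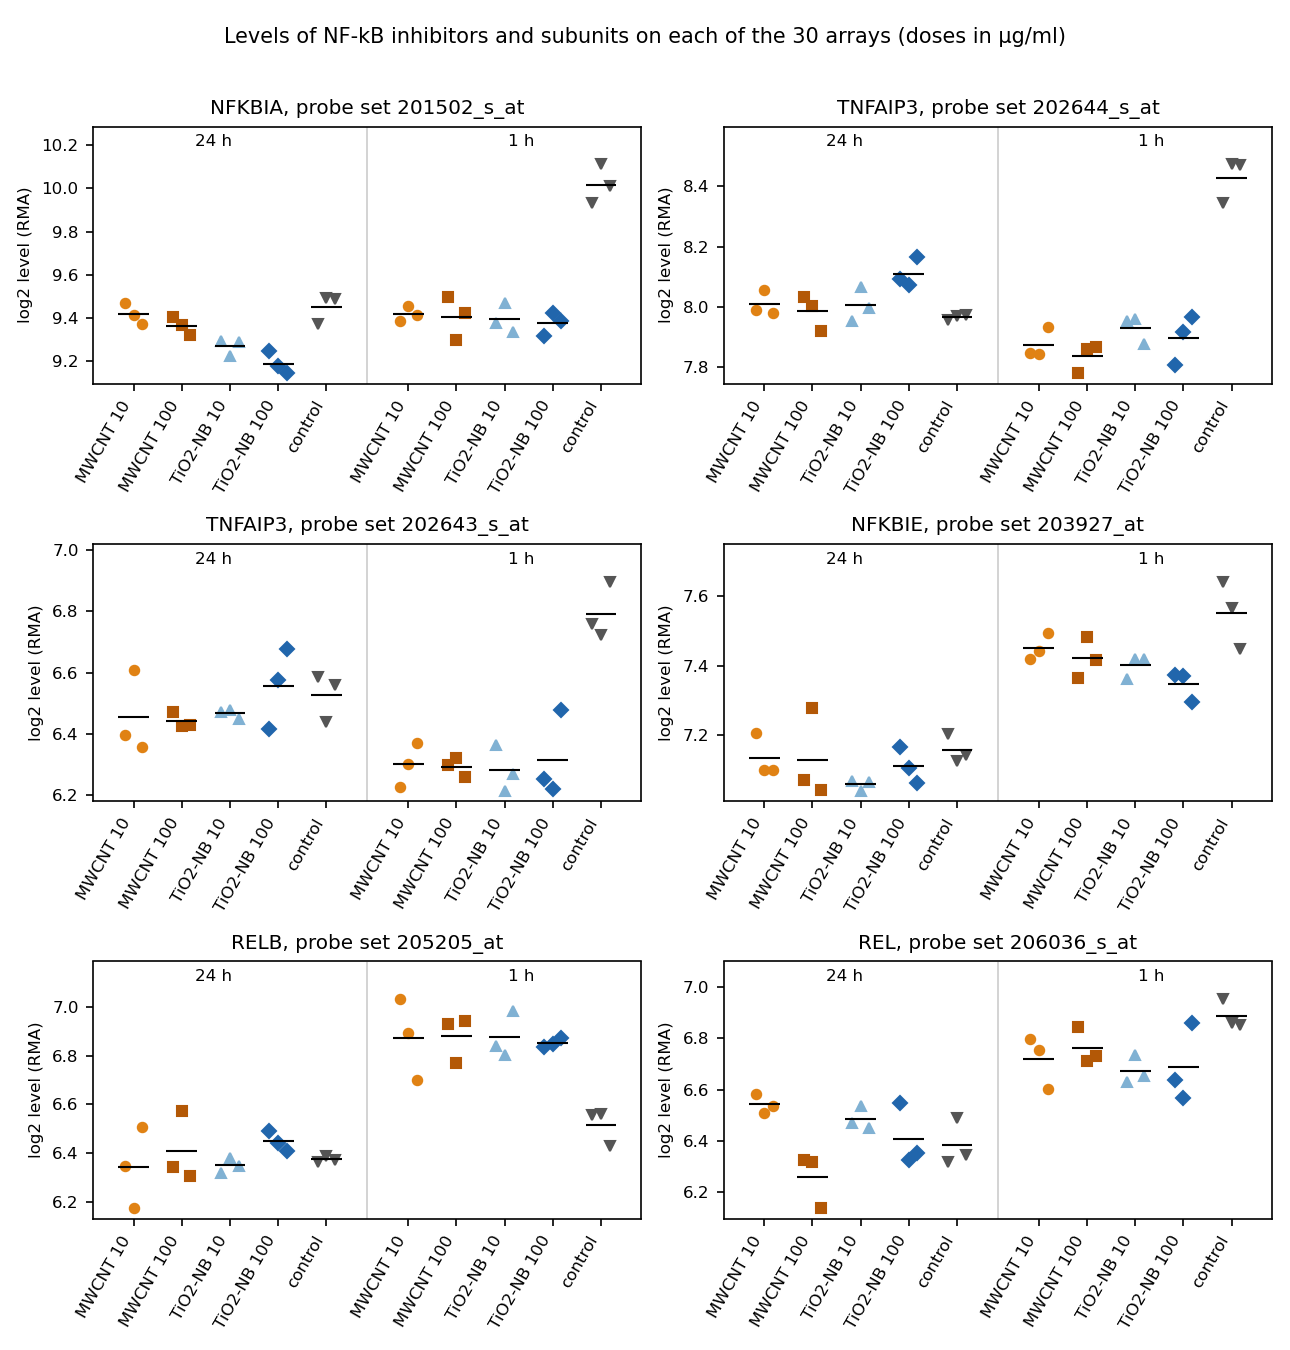
Log2 level (RMA) of 6 member probe sets on each of the 30 arrays, with groups along the horizontal axis (24 h left of 1 h, control at the right of each time) and each group's mean of 3 arrays as a line. NFKBIA and both TNFAIP3 probe sets are high in the 1 h control alone, while RELB is high in the 4 exposed groups of 1 h, between 6.70 and 7.03.

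RELB encodes the subunit of the alternative NF-kB pathway that pairs with the p52 product of NFKB2. It was higher on every exposed array of 1 h than on any control array: 7.03, 6.89 and 6.70 with MWCNT at 10 µg/ml, 6.93, 6.77 and 6.94 with MWCNT at 100, 6.84, 6.80 and 6.98 with TiO2-NB at 10, and 6.83, 6.85 and 6.87 with TiO2-NB at 100, against 6.56, 6.56 and 6.43 in the control. The 4 exposed groups overlapped each other. RELB rose by 0.36 ± 0.080 (adjusted p = 0.00725) and 0.37 ± 0.080 (adjusted p = 0.00551) with MWCNT at 10 and 100 µg/ml, and by 0.36 ± 0.080 (adjusted p = 0.00539) and 0.34 ± 0.080 (adjusted p = 0.00874) with TiO2-NB at 10 and 100. This was 1.26-fold to 1.29-fold. When each comparison was fitted on its own 6 arrays, adjusted p was 0.121, 0.074 and 0.0619 in all but the TiO2-NB 100 group. The call also ended without MWCNT 10 replicate 1 (adjusted p = 0.0702), and with TiO2-NB at 100 without control replicate 3 (adjusted p = 0.0557).

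RELA encodes p65, the activating subunit of the classical dimer, and 1 of its 2 probe sets was called in 1 group. With 209878_s_at the levels were 7.16, 7.28 and 7.22 with MWCNT at 10 µg/ml, 7.35, 7.34 and 7.34 with MWCNT at 100, 7.13, 7.22 and 7.04 with TiO2-NB at 10, 7.30, 7.22 and 7.24 with TiO2-NB at 100, and 7.12, 7.12 and 6.83 in the control. The third control array lay well below the others. The change passed with MWCNT at 100 µg/ml (0.32 ± 0.076, adjusted p = 0.0101), whereas it was 0.20 (adjusted p = 0.135), 0.10 (adjusted p = 0.484) and 0.23 (adjusted p = 0.0662) with MWCNT at 10, TiO2-NB at 10 and TiO2-NB at 100. The call was lost without control replicate 3 (0.22, adjusted p = 0.0789), with the 18S covariate (0.25, adjusted p = 0.249) and on the compared groups only (adjusted p = 0.152). The brighter RELA probe set, 201783_s_at, differed by 0.045 to 0.087 and was not called in any group (lowest adjusted p = 0.301).

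The other subunits were not called at 1 h. REL encodes c-Rel, a subunit best known from lymphocytes, and its probe set 206036_s_at was lower by 0.13 to 0.22, with its lowest adjusted p at 0.0704 with TiO2-NB at 10 µg/ml. Without TiO2-NB 100 replicate 3, the REL change with TiO2-NB at 100 µg/ml was -0.29 (adjusted p = 0.0167). The change with TiO2-NB at 10 µg/ml passed in a fit without the dimmest probe sets (-0.22, adjusted p = 0.0438). NFKB1, which encodes the p105 precursor of p50, differed by -0.0026 to 0.12 (lowest adjusted p = 0.168). For NFKB2, which encodes the p100 precursor of p52, the probe sets 207535_s_at, 209636_at and 211524_at lay at or below the 32.1th percentile of mean level, as did REL 206035_at, and none was called. An F-test over the 5 groups of 1 h called NFKBIA, both TNFAIP3 probe sets, RELB and RELA 209878_s_at, 5 of 13 (8.52% of all probe sets). RELA did so with adjusted p = 0.0482, and it was lost with the replicate block, which left 4. Without control replicate 3 the count was 3.

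The marker lists at 1 h are given beside these changes, with 7.86% to 10.5% of all genes called in the 4 comparisons. Of 14 measured leukocyte markers of 16 listed, 2, 2, 2 and 3 rose and 0 fell in the MWCNT 10, MWCNT 100, TiO2-NB 10 and TiO2-NB 100 groups. The log2 of their summed linear levels was 11.47 to 11.69 on the exposed arrays, against 11.26 to 11.38 in the control. That sum was carried by lysozyme (LYZ, mean 11.31), which secretory gut cells also make. The other measured leukocyte markers averaged between 3.52 (HCLS1) and 6.90 (CD14), with PTPRC at 3.63. Of 12 stromal and endothelial markers 0 were called, of 12 goblet markers 1 rose in every group and 1 fell with TiO2-NB at 100 µg/ml, and of 15 enterocyte markers 1 fell with MWCNT at 100 and 1 rose with TiO2-NB at 10. Summed alike, the enterocyte markers were at 16.05 to 16.10 on the exposed arrays, also above the control at 16.02 to 16.04. Goblet markers were at 14.46 to 14.57 against 14.49 to 14.58, and stromal and endothelial markers at 9.69 to 9.87 against 9.80 to 9.84. The part of these markers in the changes of the NF-kB genes was not tested.

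**Figure D2:**
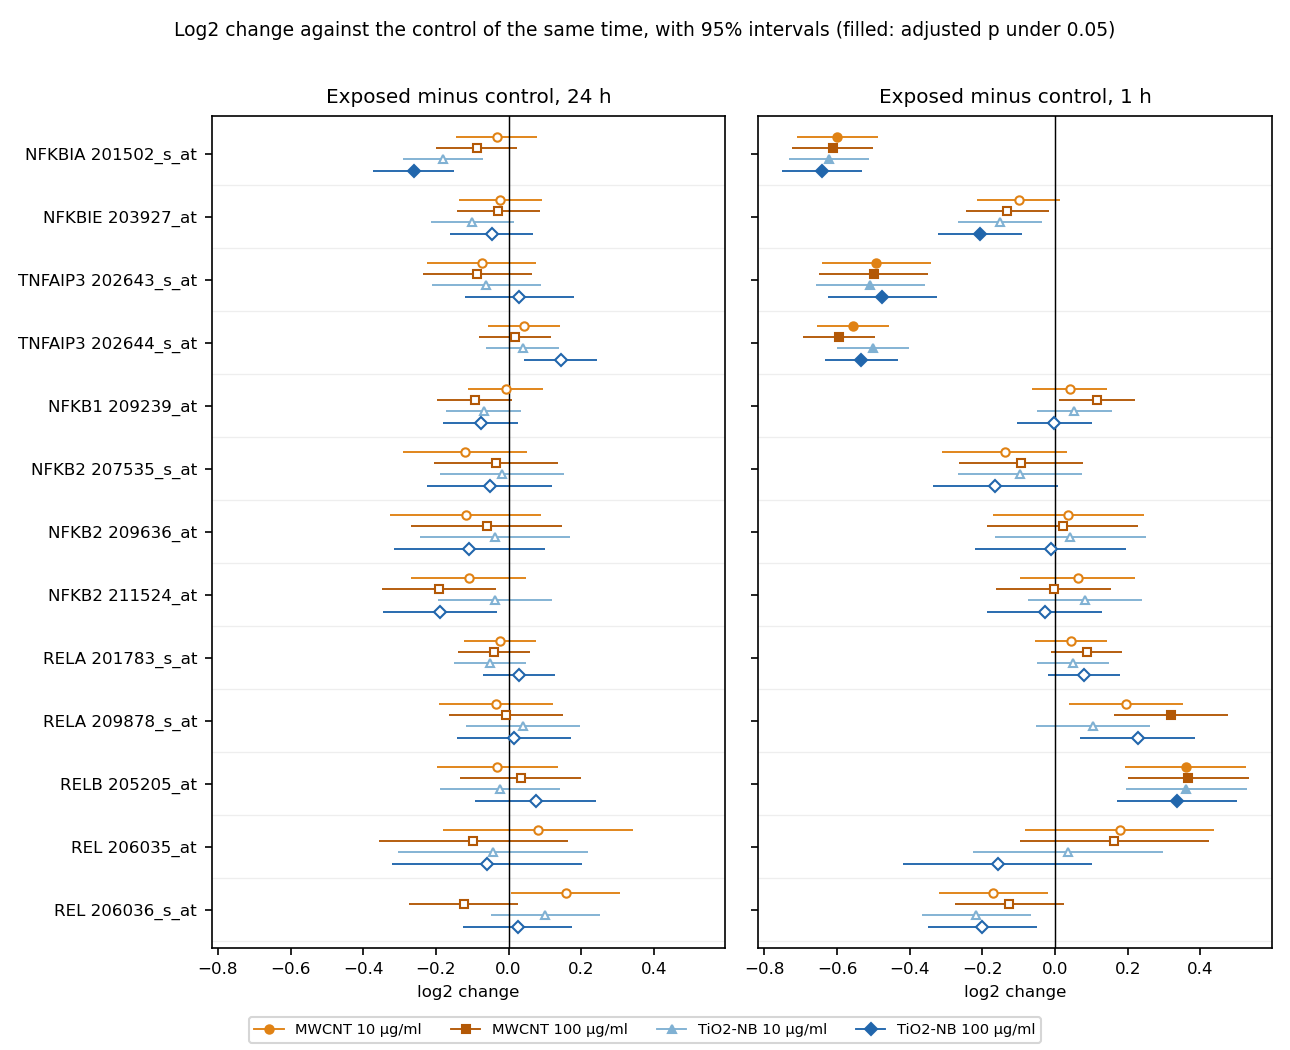
Log2 change against the control of the same time for the 13 member probe sets, with 95% intervals from limma, for 24 h (left) and 1 h (right), where the 4 exposed groups have their own colour and symbol and filled symbols passed the test. At 1 h the 4 intervals of NFKBIA lie between -0.75 and -0.49 and those of RELB between 0.17 and 0.53, and at 24 h the filled symbol is NFKBIA with TiO2-NB at 100 µg/ml.

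At 24 h the members were close to their control, apart from a smaller fall of NFKBIA with TiO2-NB at 100 µg/ml. With MWCNT, 0 of 13 probe sets were called at 10 µg/ml (0.0045% of all probe sets) and 0 at 100 µg/ml (0.009%), and at an unadjusted p under 0.05 there was 1 in each. With TiO2-NB, 0 were called at 10 µg/ml (0.0585%, with 1 at an unadjusted p under 0.05), and at 100 µg/ml 0 rose and 1 fell (3.53%, of which 0.729% up and 2.8% down, with 3 at an unadjusted p under 0.05). The percentages given here are of adjusted calls, a stricter threshold than an unadjusted p under 0.05. Of all probe sets, 952 and 1236 had an unadjusted p under 0.05 with MWCNT at 10 and 100 µg/ml. With TiO2-NB at 10 and 100 µg/ml, 1686 and 2887 did. The comparisons at 24 h share their 3 control arrays.

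NFKBIA levels at 24 h were 9.47, 9.42 and 9.37 with MWCNT at 10 µg/ml, 9.40, 9.37 and 9.32 with MWCNT at 100, 9.30, 9.22 and 9.29 with TiO2-NB at 10, 9.25, 9.18 and 9.14 with TiO2-NB at 100, and 9.37, 9.49 and 9.49 in the control. Both MWCNT groups overlapped the control and both TiO2-NB groups lay below it. NFKBIA fell by 0.26 ± 0.054 with TiO2-NB at 100 µg/ml (adjusted p = 0.00306), and it differed by -0.18 ± 0.054 with TiO2-NB at 10 (adjusted p = 0.378), by -0.088 with MWCNT at 100 (adjusted p = 0.931) and by -0.033 with MWCNT at 10 (adjusted p = 1.00). When the TiO2-NB 100 group and its control were fitted alone the adjusted p was 0.0749. NFKBIA was also the member called by the F-test over the 5 groups of 24 h (adjusted p = 0.0132, where 3.14% of all probe sets were called), a call that ended without TiO2-NB 100 replicate 2 or 3.

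The remaining members gave no call at 24 h. TNFAIP3 202644_s_at had levels of 8.09, 8.07 and 8.16 with TiO2-NB at 100 µg/ml, against 7.96, 7.97 and 7.97 in the control, a difference of 0.14 ± 0.048 (adjusted p = 0.129) with no overlap. Its other probe set differed by 0.029 (adjusted p = 0.926) and its 3 arrays overlapped the control. RELB differed by -0.031 to 0.074 across the 4 groups (lowest adjusted p = 0.779), and NFKBIE by -0.10 to -0.023 (lowest adjusted p = 0.723). REL 206036_s_at had levels of 6.58, 6.51 and 6.53 with MWCNT at 10 µg/ml. These lay above the control levels of 6.32, 6.49 and 6.35, but the change was not called.

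The time dependence was tested as the difference between an effect at 24 h and the effect of the same exposure at 1 h. In each of the 4 exposures 3 member probe sets were called, all with a positive difference: NFKBIA and both of TNFAIP3. A positive difference need not be a rise of the level. NFKBIA averaged 9.38 to 9.42 in the exposed groups at 1 h and 9.19 to 9.42 at 24 h, while its control went from 10.02 to 9.45. TNFAIP3 202644_s_at averaged 7.83 to 7.93 in the exposed groups at 1 h and 7.98 to 8.11 at 24 h. Its control went from 8.43 to 7.97. Of all probe sets, 1.79% were called for MWCNT at 10 µg/ml (1.3% positive), 2.71% for MWCNT at 100 (1.48% positive), 3.83% for TiO2-NB at 10 (2.94% positive) and 5.84% for TiO2-NB at 100 (3.52% positive). For NFKBIA the difference was 0.57, 0.52, 0.44 and 0.38, each ± 0.076, in that order (highest adjusted p = 0.00287). Other settings ended the call of TNFAIP3 202643_s_at with MWCNT. At 10 µg/ml the call was lost on the compared groups only (adjusted p = 0.101), after a second quantile normalisation (adjusted p = 0.0518), and with 18S in the fit (adjusted p = 0.0789). It was also lost without replicate 3 of the 1 h control, replicate 2 or 3 of the 24 h control, or replicate 1 or 2 of MWCNT 10 at either time (highest adjusted p = 0.106). At 100 µg/ml the call was lost with 18S in the fit (adjusted p = 0.148). Leaving out replicate 3 of the 1 h control or of MWCNT 100 at 1 h, replicate 2 of the 24 h control, or any MWCNT 100 replicate of 24 h ended it too (highest adjusted p = 0.0889). For RELB the difference was -0.39, -0.33, -0.39 and -0.26, each ± 0.11, and none passed (adjusted p = 0.0829, 0.118, 0.0566 and 0.203), so the RELB effects at 24 h and 1 h were not shown to differ. The TiO2-NB 10 value passed under 6 of the other settings tried, with adjusted p between 0.0344 and 0.0482. The MWCNT 10 value passed without the dimmest probe sets (adjusted p = 0.0493), without MWCNT 10 replicate 3 of 1 h (adjusted p = 0.0325) and without MWCNT 10 replicate 3 of 24 h (adjusted p = 0.0384), and the TiO2-NB 100 value passed on the compared groups only (adjusted p = 0.0493).

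The control cultures themselves differed between 24 h and 1 h, and NFKBIA and TNFAIP3 were among the members called. Of 13 member probe sets 1 was higher and 6 were lower in the 24 h control than in the 1 h control (18.1% of all probe sets were called, 7.22% up and 10.9% down). NFKBIA was lower by 0.57 ± 0.054 (adjusted p = 4.11e-08), with 9.37, 9.49 and 9.49 in the 24 h control and 9.93, 10.11 and 10.01 in the 1 h control. TNFAIP3 was lower by 0.46 ± 0.048 with 202644_s_at (adjusted p = 1.68e-07) and by 0.26 ± 0.073 with 202643_s_at (adjusted p = 0.012). The second of these calls ended without 1 h control replicate 3 (adjusted p = 0.0775) or 24 h control replicate 2 (adjusted p = 0.0738).

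NFKBIE also fell over time in the controls, by 0.40 ± 0.055 (adjusted p = 1.15e-05), with 7.20, 7.12 and 7.14 at 24 h and 7.64, 7.57 and 7.45 at 1 h. REL 206036_s_at fell by 0.50 ± 0.073 (adjusted p = 1.76e-05), with 6.32, 6.49 and 6.35 at 24 h and 6.95, 6.86 and 6.85 at 1 h. RELA 201783_s_at fell by 0.22 ± 0.048 (adjusted p = 0.00183), its groups being narrow at 8.30 to 8.35 and 8.51 to 8.56. NFKB1 was the member that rose, by 0.18 ± 0.050 (adjusted p = 0.0124), with 7.64, 7.77 and 7.67 at 24 h and 7.54, 7.45 and 7.54 at 1 h. The NFKB1 call ended without replicate 2 of either control (adjusted p = 0.0883 for 24 h and 0.0702 for 1 h) and on the compared groups only (adjusted p = 0.085). RELB differed by -0.14 ± 0.080 (adjusted p = 0.249).

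**Figure D3:**
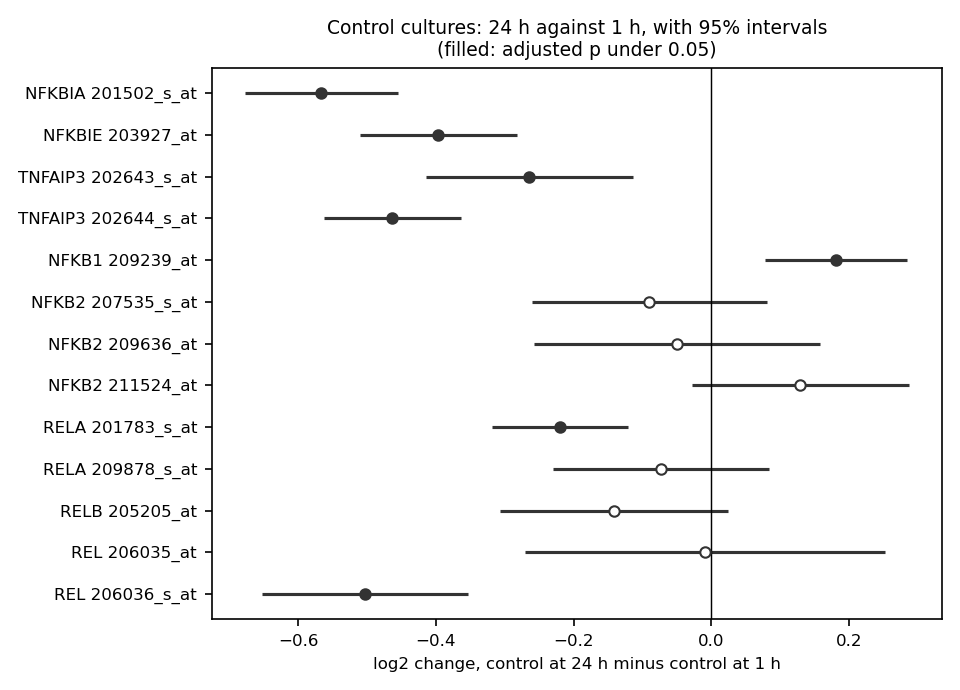
Log2 change of the 13 member probe sets in control cultures, 24 h minus 1 h, with 95% intervals, where filled points passed the test. NFKBIA, REL 206036_s_at, TNFAIP3 and NFKBIE lie left of 0, and NFKB1 lies right of it at 0.18.

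Ordered by group mean, NFKBIA had its highest level in the 1 h control (10.02 ± 0.089, SD), apart from all other groups. The next 7 groups ran from 9.45 ± 0.067 in the 24 h control to 9.36 ± 0.042 in MWCNT 100 of 24 h, with the 4 exposed groups of 1 h among them at 9.38 to 9.42, and neighbours in this order overlapped. Lowest were TiO2-NB 10 of 24 h (9.27 ± 0.039) and TiO2-NB 100 of 24 h (9.19 ± 0.052), which overlapped each other and lay below the arrays of MWCNT 100. TNFAIP3 202644_s_at was likewise highest in the 1 h control (8.43 ± 0.073), but its lowest groups were the 4 exposed groups of 1 h, at 7.83 to 7.93. RELB had the 4 exposed groups of 1 h on top at 6.85 to 6.88, then the 1 h control (6.52 ± 0.074), then the groups of 24 h at 6.34 to 6.45. All 4 comparisons at 1 h use the 1 h control, the group that stood apart for both inhibitors.

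Dose made no difference that passed for any member. Of 13 probe sets 0 were called between 100 and 10 µg/ml for MWCNT at 24 h or 1 h (0% of all probe sets each). For TiO2-NB 0 were called at 1 h (0%) and 0 at 24 h (1.83%). At an unadjusted p under 0.05 there were 1, 0, 0 and 1 members, in that order. Of all probe sets, 1478, 1518, 1427 and 1860 had an unadjusted p under 0.05. For NFKBIA at 1 h the difference was -0.012 (95% interval -0.12 to 0.099) with MWCNT and -0.019 (-0.13 to 0.092) with TiO2-NB, so a further fall of more than 0.13 log2 units at the higher dose lies outside both intervals. At 24 h it was -0.055 (-0.17 to 0.056) with MWCNT and -0.081 (-0.19 to 0.030) with TiO2-NB. For REL 206036_s_at with MWCNT at 24 h the doses did not overlap, though the difference was not called. Its levels were 6.58, 6.51 and 6.53 at 10 µg/ml and 6.33, 6.32 and 6.14 at 100.

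The 2 particles also gave no called difference in any member. Between MWCNT and TiO2-NB at the same dose, 0 of 13 were called in each of 4 pairs. The share of all probe sets called was 0.0315% at 10 µg/ml and 24 h and 2.88% at 100 µg/ml and 24 h. It was 0.0675% at 10 µg/ml and 1 h and 0% at 100 µg/ml and 1 h. At an unadjusted p under 0.05 there were 1, 2, 0 and 2 members, in that order. Of all probe sets, 1083, 2803, 3041 and 2055 had an unadjusted p under 0.05. The nearest to a call was NFKBIA at 100 µg/ml and 24 h, which averaged 9.36 ± 0.042 with MWCNT and 9.19 ± 0.052 with TiO2-NB (SD), a difference of 0.17 (95% interval 0.063 to 0.28, adjusted p = 0.092). It passed with array weights (adjusted p = 0.0267), with an intensity trend and robust variances (adjusted p = 0.0444) and after a second quantile normalisation (adjusted p = 0.0434). At 1 h the NFKBIA difference was 0.030 (-0.081 to 0.14) at 100 µg/ml, and that of RELB was 0.031 (-0.14 to 0.20).

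The wider pathway was described with 4 lists of other genes, each gene read by its brightest probe set. Of all 11963 genes read this way at 1 h, 7.86% were called with MWCNT at 10 µg/ml (2.71% up, 5.15% down) and 9.44% with MWCNT at 100 (3.79% up, 5.65% down). With TiO2-NB the share was 9.52% at 10 µg/ml (3.02% up, 6.5% down) and 10.5% at 100 (3.07% up, 7.44% down). Among the target genes of NF-kB, 44 of 49 were measured, and 0 rose and 6 fell with MWCNT at 10 µg/ml, 1 rose and 6 fell with MWCNT at 100, 0 rose and 4 fell with TiO2-NB at 10, and 1 rose and 4 fell with TiO2-NB at 100. Their median change was -0.11, -0.082, -0.033 and -0.046, against medians between -0.018 and 0.0040 over all genes. Most target genes were not called. Falls outnumbered rises among them, as they did among all genes.

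CXCL8, the chemokine that draws neutrophils, fell with both particles at 1 h. Its levels were 6.00, 6.36 and 6.28 with MWCNT at 10 µg/ml, 6.36, 6.56 and 6.51 with MWCNT at 100, 6.07, 6.29 and 6.05 with TiO2-NB at 10, 6.73, 6.46 and 6.16 with TiO2-NB at 100, and 6.71, 7.34 and 7.04 in the control. The TiO2-NB 100 group overlapped the control and the other 3 did not. The change was -0.81 ± 0.15 (adjusted p = 0.00153), -0.55 ± 0.15 (adjusted p = 0.0252), -0.89 ± 0.15 (adjusted p = 0.000444) and -0.58 ± 0.15 (adjusted p = 0.0162). EFNA1, an ephrin ligand, fell by 0.24 to 0.31 in all 4 groups (highest adjusted p = 0.00511). CCL20, which attracts dendritic cells and lymphocytes to the gut, fell with MWCNT at 10 (-0.28 ± 0.085, adjusted p = 0.0496) and 100 µg/ml (-0.34 ± 0.085, adjusted p = 0.0138), and with TiO2-NB it was -0.18 (adjusted p = 0.211) and -0.23 (adjusted p = 0.108). CFLAR, which blocks caspase 8, fell with MWCNT at 100 (-0.17, adjusted p = 0.00562) and TiO2-NB at 10 (-0.15, adjusted p = 0.0177), and the proteoglycan SDC4 fell with MWCNT at 10 (-0.19, adjusted p = 0.00397) and TiO2-NB at 100 (-0.14, adjusted p = 0.0303). The neutrophil chemokines CXCL1 and CXCL2 differed by -0.33 to -0.10 and were not called (lowest adjusted p = 0.0935).

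Upstream genes changed in both directions at 1 h. Of 27 measured receptors and adaptors (32 listed), 3 rose and 0 fell with MWCNT at 10 µg/ml, 3 rose and 1 fell with MWCNT at 100, 1 rose and 2 fell with TiO2-NB at 10, and 2 rose and 1 fell with TiO2-NB at 100. TNFRSF12A, the receptor for the cytokine TWEAK, rose in all 4, by 0.21 ± 0.062 (adjusted p = 0.0407), 0.32 ± 0.062 (adjusted p = 0.00197), 0.35 ± 0.062 (adjusted p = 0.00062) and 0.35 ± 0.062 (adjusted p = 0.000617), with exposed arrays at 10.49 to 10.86 and control arrays at 10.35 to 10.40. TNFRSF1A, the main receptor for TNF, rose with MWCNT at 10 and 100 µg/ml by 0.19 (adjusted p = 0.0297 and 0.0243), and TRADD, the adaptor that binds it, fell by 0.20 with MWCNT at 100 (adjusted p = 0.0105) and by 0.18 with TiO2-NB at 100 (adjusted p = 0.0169). TRAF5, an adaptor of TNF-type receptors, fell with TiO2-NB at 10 µg/ml (-0.27, adjusted p = 0.0451). Its levels there were 5.60, 5.28 and 5.23 and overlapped those of the control, 5.63, 5.58 and 5.69. With MWCNT at 10 µg/ml TRAF5 was not called, though its levels (5.41, 5.31 and 5.40) all lay below the control. With MWCNT at 100 they lay above it, at 5.76, 5.75 and 5.72.

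Of 19 measured kinases and ubiquitin enzymes (22 listed), 2 rose and 0 fell with MWCNT at 10 µg/ml, 3 rose and 1 fell with MWCNT at 100, 0 rose and 4 fell with TiO2-NB at 10, and 2 rose and 4 fell with TiO2-NB at 100. TANK, a binding partner of TRAF proteins, rose by 0.51 ± 0.084 (adjusted p = 0.00045) and 0.46 ± 0.084 (adjusted p = 0.00119) with MWCNT at 10 and 100 and by 0.35 ± 0.084 with TiO2-NB at 100 (adjusted p = 0.00977). CHUK, the kinase IKK-alpha, rose by 0.35 and 0.34 with MWCNT at 10 and 100 (adjusted p = 0.00227 and 0.00301). IKBKB, the kinase IKK-beta, fell by 0.26 and 0.22 with TiO2-NB at 10 and 100 (adjusted p = 0.0154 and 0.0457). Of 18 measured other inhibitors (24 listed) 0 rose in any group, and 1, 1, 3 and 1 fell, in the same order. NFKBIL1, an IkB-like protein, fell in all 4, by 0.22 to 0.28 (highest adjusted p = 0.0468). TNIP1, a partner of A20, and N4BP1 fell with TiO2-NB at 10 µg/ml, by 0.19 (adjusted p = 0.0251) and 0.15 (adjusted p = 0.0182). BIRC2, the ubiquitin ligase cIAP1, fell by 0.13 to 0.14 in all but the MWCNT 10 group (highest adjusted p = 0.0213). For any gene of the 4 lists, a call in 1 group and not in another does not show that the groups differed. Of all probe sets, 0 were called between the doses of either particle at 1 h. Between the particles at 1 h, 15 were called at 10 µg/ml and 0 at 100.

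**Figure D4:**
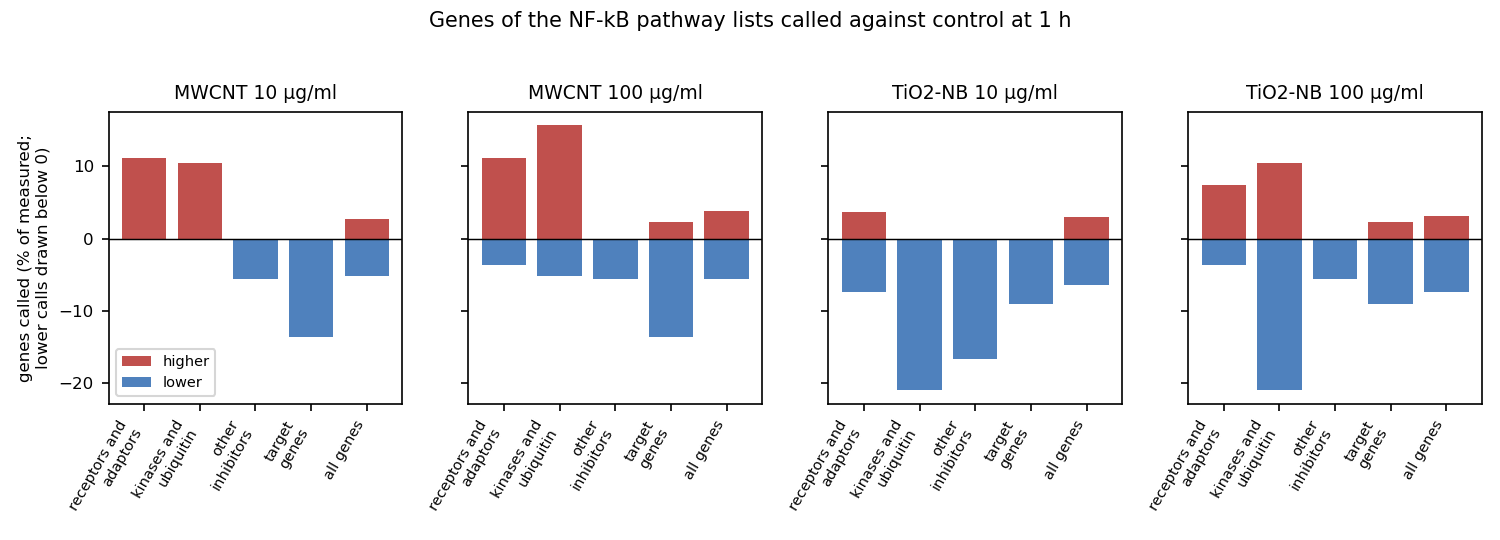
Genes called higher (above 0) and lower (below 0) against the 1 h control, in percent of the measured genes of each pathway list and of all genes, for the 4 exposed groups. Among target genes lower calls outnumber higher calls in every group, with 6, 6, 4 and 4 genes lower, and the same holds for all genes.

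At 24 h the lists were at or near 0 calls. None of the 4 lists had a call with MWCNT at 10 µg/ml (0% of all genes), MWCNT at 100 (0.00836%) or TiO2-NB at 10 (0.0502%). With TiO2-NB at 100 µg/ml, where 3.15% of all genes were called (0.853% up, 2.3% down), 2 target genes rose and 1 fell, 3 other inhibitors and 1 kinase or ubiquitin enzyme fell, and the receptors and adaptors gave 0 calls. CCL20 was among the target genes that rose, by 0.80 ± 0.085 (adjusted p = 8.57e-07), with levels of 8.63, 8.63 and 8.70 against 7.93, 7.94 and 7.68 in the control. PIAS1, a ligase that attaches SUMO to transcription factors, fell by 0.25 ± 0.068 (adjusted p = 0.0409). Its levels were 8.77, 8.66 and 8.41, against 8.87, 8.87 and 8.84 in the control. The calls of list genes, at either time, were not retried under the other fits, which were read for members and for overall counts.

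In the controls, of 44 measured target genes 3 rose and 10 fell at 24 h against 1 h and 31 were not called, with 21.1% of all genes called (8.79% up, 12.3% down). CXCL8 fell by 1.48 ± 0.15 (adjusted p = 1.22e-07), with 5.49, 5.44 and 5.71 at 24 h and 6.71, 7.34 and 7.04 at 1 h. CCL20 fell by 1.13 ± 0.085 (adjusted p = 9.12e-10), CXCL2 by 0.71 ± 0.13 (adjusted p = 0.000279) and CXCL1 by 0.54 ± 0.12 (adjusted p = 0.00211). EFNA1 went the other way and rose by 1.08 ± 0.052 (adjusted p = 2.89e-13).

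Genes with a pattern over the 10 groups most like that of a member were found by the root mean square difference of centred group means. Closest to NFKBIA were ZNF426 (0.098), ACKR3 (0.12), RWDD2A (0.12), AFDN-DT (0.12) and SCAI (0.12), where the median gene was 0.23 away and the spread of NFKBIA itself was 0.21. Closest to RELB were E2F3 (0.048), TRAF4 (0.049), EWSR1 (0.050), PGPEP1 (0.050) and IL4R (0.051), where the median gene was 0.25 away and the spread of RELB was 0.23. The values describe 10 group means that share their arrays.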

How the data were processed

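Total RNA (3 µg per array) was labelled and hybridised to Affymetrix arrays, per the labels' protocols. The authors deposited log2 values made with RMA, per the submitters' processing notes, whose version is not given in the sources used here. RMA equalises the distributions of the arrays, so changes are relative to other transcripts. From there, 62 control probe sets of 22277 were set aside and 22215 tested with limma 3.58.1 in R 4.3.3: 1 mean per group over all 30 arrays, 20 residual degrees of freedom, moderated two-sided tests in 21 comparisons and 2 F-tests, and Benjamini-Hochberg adjustment within each. Arrays have no read depth, and their number limits precision. Of the probe sets, 19064 carry 1 symbol, 1043 several and 2108 none, and names came from those with 1. All 30 columns were mapped to samples. The fit was tested on simulated data.

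Members and lists were chosen with earlier results of these data known. Every member probe set is named. Of each list, the rule names up to 4 genes by F-test p at 1 h, and chemokine targets. For likeness it names 5 genes. Same-numbered arrays were not taken as pairs: their deviations from group means correlated at -0.12 to 0.21 in 24 pairs. No batch is given in the labels. The fits tried besides used the compared groups alone, a replicate block, a filter on low levels, 2 rescalings, an intensity trend, array weights, 18S as a covariate, 1 probe set per gene, each array left out and, chosen after seeing the data, the 15 arrays of a time.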

Additional observations from a re-analysis of the deposited data

Results flagged for a closer look

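The effect of an exposure differed between 24 h and 1 h for NFKBIA and TNFAIP3, by the test of the difference itself. For NFKBIA the 24 h effect minus the 1 h effect was 0.567 with MWCNT at 10 µg/ml, 0.524 with MWCNT at 100, 0.442 with TiO2-NB at 10 and 0.380 with TiO2-NB at 100 on the log2 scale. For TNFAIP3 202644_s_at it was 0.598, 0.613, 0.539 and 0.677, and for 202643_s_at 0.418, 0.414, 0.448 and 0.505, in the same order. Both controls enter each of these differences, and the 24 h control minus the 1 h control was -0.57 for NFKBIA and -0.46 and -0.26 for the TNFAIP3 probe sets.

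The 18S ribosomal RNA control probe sets, which no comparison of genes uses, were higher on all exposed than on all control arrays at 1 h in 3 groups. The difference was 0.677 with MWCNT at 10 µg/ml, 0.932 with MWCNT at 100 and 0.434 with TiO2-NB at 100. With the 18S level as a covariate, the 1 h calls of NFKBIA, TNFAIP3 and RELB stood in all 4 groups, and RELA 209878_s_at with MWCNT at 100 µg/ml was lost (0.25, adjusted p = 0.249).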

How the results depend on the processing

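Of 169 changes of member probe sets, 38 were called. The 169 cover the comparisons with control, of the 2 controls and of effects between times, and leave out those of dose and particle. The share of all probe sets called stands with each comparison above. Of the 38, 27 kept their call under every alternative run, among them NFKBIA and both TNFAIP3 probe sets at 1 h in all 4 groups. Another 11 lost it somewhere, 7 that were not called passed somewhere, and 0 reversed a call. Counts of called members moved by over 1.5 times as follows. On the compared groups only, MWCNT 100 at 1 h gave 3, TiO2-NB 100 at 24 h gave 0 and the F-test at 1 h gave 3. With 1 probe set per gene (8 members tested), MWCNT 100 at 1 h and the F-test at 1 h gave 3 each. MWCNT minus TiO2-NB at 100 µg/ml and 24 h gave 1, NFKBIA, under the second quantile normalisation, the intensity trend and array weights. Leaving out 1 array gave 3 to 5 for the F-test at 1 h (3 without control replicate 3) and 0 to 1 for the F-test at 24 h (0 without TiO2-NB 100 replicate 2 or 3). With the replicate block the counts of called members against control were the same, 4, 5, 4 and 5 at 1 h and 0, 0, 0 and 1 at 24 h, and the F-test at 1 h called 4 in place of 5, without RELA 209878_s_at. In the check of the numbers, 15 of 30 arrays correlated best with arrays of their own number. Of the 24 pairs, 5 correlated above 0.1. No count to set beside these was worked out, so shared conditions among same-numbered arrays were not excluded. RELA 209878_s_at with TiO2-NB at 100 µg/ml and 1 h passed under 5 settings (adjusted p = 0.0343 to 0.0478).

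Over all probe sets at 1 h, MWCNT 10, MWCNT 100, TiO2-NB 10 and TiO2-NB 100 gave 1435, 1729, 1742 and 1872 calls, but 84, 112, 219 and 269 on the compared groups only, and 580, 783, 920 and 996 on the 15 arrays of the time, both with fewer arrays to estimate the spread. With the 18S covariate MWCNT 10 gave 814 and MWCNT 100 gave 426. Leaving out 1 array gave as few as 710, 1112, 1026 and 1175. At 24 h TiO2-NB 100 gave 785, but 217 on the compared groups only, 1381 with array weights, 376 with 1 probe set per gene and as few as 491 without an array. TiO2-NB 10 at 24 h gave 13, but 54 with the 18S covariate, 5 with 1 probe set per gene and 8 to 18 without an array. MWCNT 10 gave 1 at 24 h and 0 to 5 under the alternatives, and MWCNT 100 gave 2 and 0 to 4. Shifting all arrays to 1 median turned the 1 h MWCNT 100 split of 780 up and 949 down into 957 and 712, and the TiO2-NB 10 split of 579 and 1163 into 768 and 902. The second quantile normalisation turned the TiO2-NB 100 split of 588 and 1284 into 791 and 1050. The cause was not tested. The 4 dimmest member probe sets, of NFKB2 and REL, limit what can be said of those genes.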
